A study of Mus musculus with 21 samples.

Results

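The genes described are 10 mouse genes that build and load the antigen-presenting molecules of the major histocompatibility complex (MHC), called H2 in the mouse. The rule that defines them is a list of symbols and uses no measured value, although the list was drawn up with earlier results of these data known, and all 10 are among the 22050 entries of the deposited expression table. H2-K1 and H2-D1 encode class I heavy chains, B2m encodes the light chain that pairs with them, and Tap1, Tap2 and Tapbp encode the peptide transporter and tapasin, which load class I in the endoplasmic reticulum. H2-Aa, H2-Ab1 and H2-Eb1 encode class II chains, and Cd74 encodes the invariant chain, which fills the class II groove until the complex reaches the lysosomal system.

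Expression was measured by CEL-Seq, a method that reads transcripts near their 3′ end, in GFP+ keratinocytes from dorsal skin of male mice given doxycycline from 3 weeks of age for 6 months. The p16 group was sorted from animals of genotype K5-rtTA/tet-GFP/tet-p16, in which doxycycline switches on human p16, a cell-cycle inhibitor, and GFP. The rtTA activator that this needs is driven by the keratin 5 promoter. In K5-rtTA/tet-p16 mice, the paper detected p16 protein in only a part of the epidermal cells. The control group came from K5-rtTA/tet-GFP mice, which carry the same activator and GFP and received the same doxycycline, so both groups share them. Each group had 4 samples, and each sample held about 80000 sorted cells from 3 pooled mice, after cells with CD140a, CD45 or CD31 on their surface (fibroblasts, immune and endothelial cells) were gated out. The background was mixed (FVB, C57Bl and 129sv), and the strain share of each pool is not given in the sources used here. The samples came from 3 independent experiments, but the labels do not tie samples to experiments, and p-values measure the spread between these pools. A further 13 samples of a second profiling were not analysed here.

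Class I molecules sit on nearly all nucleated cells and show peptides from inside the cell to CD8+ T cells. Class II molecules are normally made by professional antigen-presenting cells, in the epidermis mainly Langerhans cells, and show peptides taken up from outside to CD4+ T cells. Keratinocytes make class II mainly after interferon-gamma. Class I genes are driven by the transactivator Nlrc5, class II genes by Ciita, and both act at promoters through a shared set of sequence boxes.

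The promoters of 6 of the genes are shown because class I and class II genes are known to share these boxes. RefSeq (GRCm38.p6) windows were available for 7 of the 10 genes, with none for H2-Ab1, Cd74 and Tap2. The 250 bases before the listed transcript start are printed 5′ to 3′ on the gene's strand. Capitals mark matches on either strand to 5 motifs that were picked after the sequences had been read: the Y box core ATTGG, the X2 box core TGACG, the kappaB core GGGATTCCC, the interferon-response stretch TTTCACTT and the core AANNGAAA of sites for interferon regulatory factors. Read on the other strand, the interferon-response stretch is itself a match to AANNGAAA, so these matches overlap.
H2-K1: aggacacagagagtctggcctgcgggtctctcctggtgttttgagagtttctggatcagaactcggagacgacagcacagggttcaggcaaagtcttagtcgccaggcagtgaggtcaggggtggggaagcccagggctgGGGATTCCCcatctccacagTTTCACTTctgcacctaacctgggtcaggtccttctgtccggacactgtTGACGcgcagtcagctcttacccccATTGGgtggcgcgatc
H2-D1: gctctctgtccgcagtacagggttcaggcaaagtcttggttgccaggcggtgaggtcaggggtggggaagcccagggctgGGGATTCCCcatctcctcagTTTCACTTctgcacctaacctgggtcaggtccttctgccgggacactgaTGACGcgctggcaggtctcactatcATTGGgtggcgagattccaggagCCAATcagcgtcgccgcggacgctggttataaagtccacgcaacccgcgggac
B2m: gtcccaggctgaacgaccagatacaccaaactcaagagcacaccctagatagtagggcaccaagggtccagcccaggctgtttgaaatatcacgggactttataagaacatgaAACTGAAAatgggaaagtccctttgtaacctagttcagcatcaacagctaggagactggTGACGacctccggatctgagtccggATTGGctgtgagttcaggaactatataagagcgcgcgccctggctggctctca
Tap1: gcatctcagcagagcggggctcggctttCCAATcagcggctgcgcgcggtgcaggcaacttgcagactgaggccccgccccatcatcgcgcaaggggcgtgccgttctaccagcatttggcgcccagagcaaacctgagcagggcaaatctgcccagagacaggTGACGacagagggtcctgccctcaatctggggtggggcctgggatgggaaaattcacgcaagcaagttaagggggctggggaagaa
H2-Aa: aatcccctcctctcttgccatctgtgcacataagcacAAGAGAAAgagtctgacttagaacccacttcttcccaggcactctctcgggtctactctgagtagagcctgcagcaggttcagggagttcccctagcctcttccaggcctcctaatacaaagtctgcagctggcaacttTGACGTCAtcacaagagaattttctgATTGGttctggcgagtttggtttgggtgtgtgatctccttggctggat
H2-Eb1: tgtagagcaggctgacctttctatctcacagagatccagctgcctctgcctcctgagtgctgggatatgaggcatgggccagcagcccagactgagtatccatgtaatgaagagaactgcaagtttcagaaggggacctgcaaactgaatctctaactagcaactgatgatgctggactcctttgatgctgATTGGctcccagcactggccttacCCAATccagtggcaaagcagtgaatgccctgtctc

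The windows lie at chr17:34000348-34000597 (minus strand) for H2-K1 (the first of 2 listed), chr17:35262844-35263093 (plus strand) for H2-D1, chr2:122147437-122147686 (plus strand) for B2m, chr17:34187306-34187555 (plus strand) for Tap1, chr17:34287824-34288073 (minus strand) for H2-Aa and chr17:34305617-34305866 (plus strand) for H2-Eb1. The H2-D1 window precedes the RefSeq start but lies inside the gene as GENCODE M21 draws it, so the annotations disagree on where H2-D1 starts. H2-K1 and H2-D1 hold the same order of marked boxes: the kappaB core, the interferon-response stretch, an X2 core and then the Y box core. The kappaB letters were in 99 of the 32851 windows of this length in the RefSeq table (0.301%), and the interferon-response stretch was in 1.36%. The Y box core was found in all 6 windows shown and in 33.85% of all windows, and 6.12% of all windows held both the Y box and X2 cores. H2-Aa holds a palindrome in which 2 X2 cores overlap, and the letters of the X2 core are not in the H2-Eb1 window. The core AANNGAAA was found in 4 of the 6 windows shown, those of H2-K1, H2-D1, B2m and H2-Aa, and in 21.3% of all windows, and the X2 core alone in 17.8%. A match describes the sequence and is not evidence of binding.

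The libraries were labelled as keratinocytes, and the basal keratins Krt5 and Krt14 were at 9046 to 17969 and 8427 to 15562 normalized reads across the 8 libraries. Ptprc, which encodes the CD45 used to gate out immune cells, had 3 reads in all controls together and 3 in all p16 libraries. Of 9 endothelial markers, 4 were at 0 in every library (Cdh5, Kdr, Emcn and Cldn5). The other 5, led by Egfl7, brought the sums to 17.8, 10.3, 19.2 and 15.2 normalized reads in the controls (replicates 1 to 4 in order, as in all such lists) and 16.8, 11, 15.9 and 14.0 in the p16 libraries, and Pecam1, which encodes the gated CD31, had 14 reads over the controls and 26 over the p16 libraries. The reporter EGFP had 4152, 5798, 5458 and 5913 normalized reads in the controls. In the p16 libraries it had 3624, 3979, 3162 and 3453, without overlap. The human CDKN2A transgene was read 1, 1, 3 and 1 times in the controls and 2, 13, 18 and 9 times in the p16 libraries. The library labelled p16 replicate 1 thus lay inside the range of the controls. Its Cd34 was at 8.8 normalized reads, against 121.9 to 238.9 in the controls and 8.0 to 16.4 in the other p16 libraries. Its Dcn was at 85.6, against 2.6 to 10.7 in the controls and 36.2 to 203.0 in the other p16 libraries. Both genes were chosen with their values known, and Skint3, given below, was above every control in that library. Counts of called members and the values of called pathway genes are given with and without p16 replicate 1. Those of cell-type markers are given with all libraries only. The depth was 3414362, 2068248, 3067190 and 1760953 reads on genes in the controls, against 3150237, 3202975, 2884544 and 3169274 in the p16 libraries. A normalized read is a count divided by the sample's size factor. It is not divided by transcript length. Levels are compared between samples, and read numbers of different genes show only how deeply each was read.

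**Figure D1:**
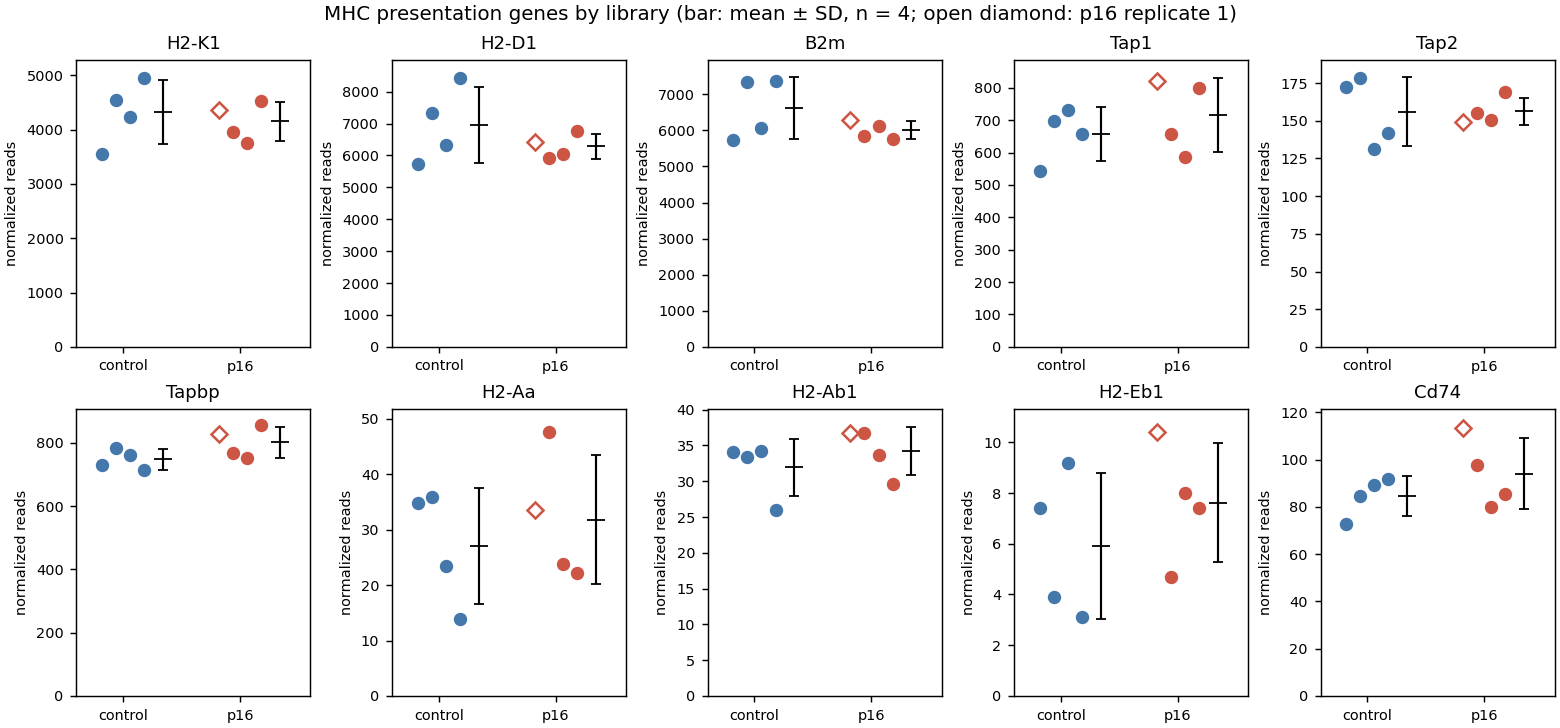
Normalized reads (y axis, from 0) of the 10 genes in the 4 control and 4 p16 libraries, with replicates 1 to 4 from left to right, the mean ± SD as a bar and the library labelled p16 replicate 1 as an open diamond. The 2 groups overlap in all 10 panels.

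After 6 months of p16 induction, none of the 10 genes passed the test in either direction. In limma (log2 of the normalized value + 1, Benjamini-Hochberg adjustment over 12782 genes), 0 of 10 were called at an adjusted p under 0.05, where 3.86% of all tested genes were called, and 0 of 10 had an unadjusted p under 0.05, where 15.9% of all genes did. Count tests on the recovered reads also called none: 0 of 9 in edgeR, whose filter on low counts dropped H2-Eb1 (4.29% of all genes called), and 0 of 10 in DESeq2 (4.27%). The groups overlapped at 10 of 10 genes, while the values did not overlap at 9.83% of all tested genes. Fitted log2 fold changes were positive for 7 genes and negative for 3, with a median of 0.10 against -0.003 over all tested genes. Without the library labelled p16 replicate 1, 0 of 10 were called, where 2.04% of all tested genes were, and the log2 fold changes ran from -0.16 (B2m) to 0.23 (H2-Eb1). These pools cannot tell fewer cells of a type from less RNA per cell.

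H2-K1 (ENSMUSG00000061232, chr17:33996017-34000347 on GRCm38, minus strand) encodes a classical class I heavy chain. It had 3557, 4535, 4229 and 4958 normalized reads in the controls and 4353, 3955, 3761 and 4530 in the p16 libraries. All 4 p16 values lay within the range of the controls. Controls averaged 4320 ± 590 and p16 libraries 4150 ± 354 (SD, n = 4 each), a log2 fold change of -0.05 (SE 0.11, limma adjusted p = 0.891). The 95% interval ran from 0.815-fold to 1.14-fold, and the exact two-sided permutation p was 0.629, where 4 against 4 samples allow 0.0286 at the least.

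H2-D1 (ENSMUSG00000073411, chr17:35262730-35267499, plus strand), the other classical heavy chain, had 5728, 7327, 6338 and 8427 normalized reads in the controls and 6432, 5925, 6031 and 6771 in the p16 libraries. Every p16 value again fell within the control range, and control replicates 2 and 4 were the highest of the 8. The means were 6955 ± 1182 (SD, n = 4) and 6290 ± 388 (SD, n = 4), a log2 fold change of -0.13 (SE 0.12, limma adjusted p = 0.674) with an interval of 0.763-fold to 1.09-fold. In the table this entry is tied to 2 Entrez gene numbers.

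B2m (ENSMUSG00000060802, chr2:122147686-122153083, plus strand), the light chain without which class I does not reach the surface, had 5729, 7343, 6054 and 7373 normalized reads in the controls. The p16 libraries had 6289, 5831, 6123 and 5763. The same control libraries, replicates 2 and 4, were again the highest, and the 4 p16 values lay within the control range. The means were 6625 ± 857 (SD, n = 4) and 6001 ± 247 (SD, n = 4), a log2 fold change of -0.13 (SE 0.11, limma adjusted p = 0.615) with an interval of 0.776-fold to 1.07-fold.

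Control replicates 2 and 4 were also the shallowest libraries and had the highest Krt5, at 15452 and 17969 normalized reads against 9046 to 10856 in the other 6. The 3 class I chain genes together took 0.593%, 0.724%, 0.649% and 0.772% of all reads in the controls. In the p16 libraries they took 0.678%, 0.628%, 0.622% and 0.655%. The part of depth in the spread of these genes was not tested. The SD between controls was 17.0% of the mean for H2-D1, where counting error alone would give 1.24%.

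**Figure D2:**
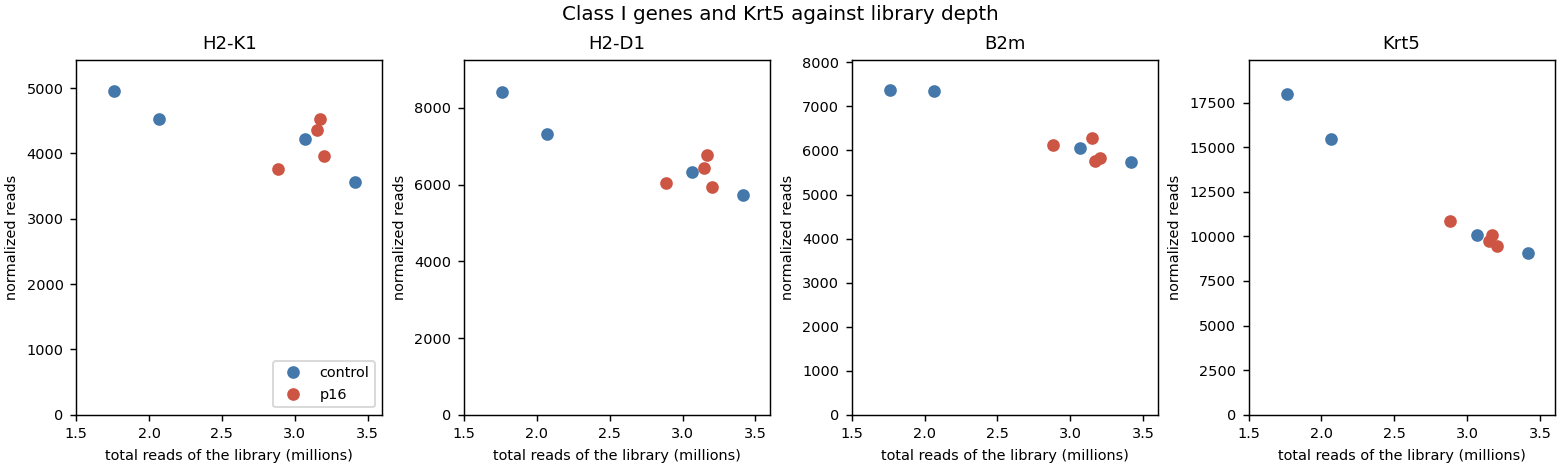
Normalized reads (y axis) of H2-K1, H2-D1, B2m and the keratin Krt5 against the total reads of each library (x axis), with 1 point per library. The 2 shallowest libraries, control replicates 4 and 2, have the highest H2-K1, H2-D1, B2m and Krt5. For H2-K1, control replicate 2 (4535) is close to p16 replicate 4 (4530).

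The genes that deliver peptide to class I did not pass the test either. Tap1 (chr17:34187553-34197225), a subunit of the peptide transporter, had 542, 697, 731 and 659 normalized reads in the controls and 820, 657, 586 and 800 in the p16 libraries. Replicates 1 and 4 of the p16 group lay above every control, and the other 2 lay inside their range. The means were 657 ± 82.4 and 716 ± 113 (SD, n = 4 each), a log2 fold change of 0.12 (SE 0.13, limma adjusted p = 0.724). Without p16 replicate 1 the log2 fold change was 0.05.

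Tap2 (chr17:34203527-34216321), the other transporter subunit, had 172, 178, 131 and 142 normalized reads in the controls and 150, 155, 151 and 169 in the p16 libraries. The means were 156 ± 22.9 and 156 ± 9.13 (SD, n = 4 each), a log2 fold change of 0.01 (SE 0.12, limma adjusted p = 0.980) with an interval of 0.842-fold to 1.21-fold. The 4 p16 values lay between the 2 lower and the 2 higher controls. Tapbp (chr17:33915899-33929292), tapasin, which bridges the transporter and the empty class I molecule, had 729, 784, 763 and 714 normalized reads in the controls and 829, 769, 753 and 856 in the p16 libraries. Again p16 replicates 1 and 4 were above all controls. The means were 747 ± 31.9 and 802 ± 48.8 (SD, n = 4 each), a log2 fold change of 0.10 (SE 0.09, limma adjusted p = 0.645), and the interval of 0.944-fold to 1.22-fold was the narrowest of the 10 genes.

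**Figure D3:**
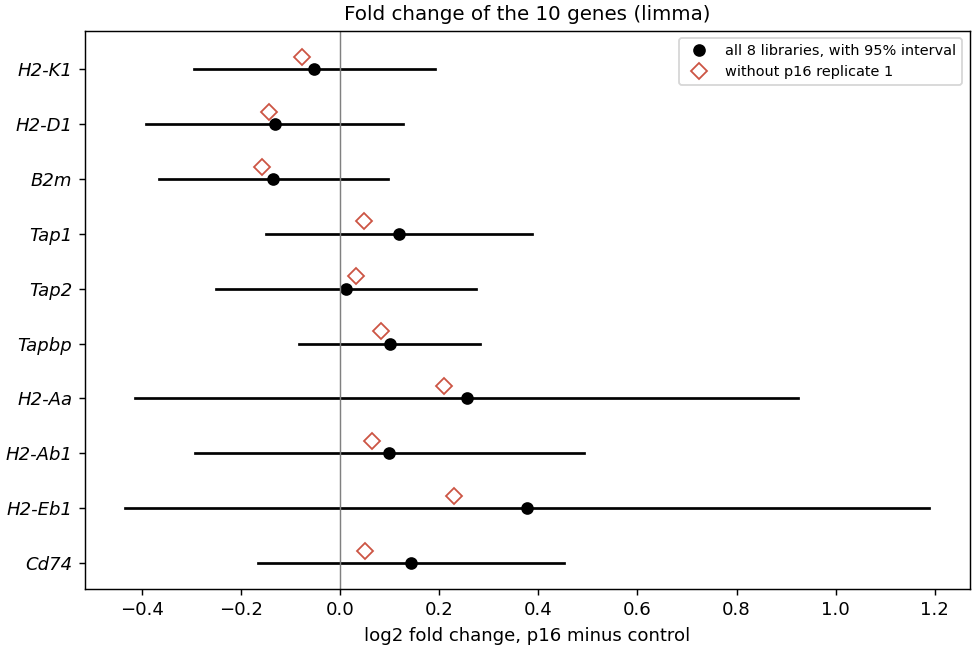
Log2 fold change of p16 minus control (x axis) for the 10 genes, with all 8 libraries and the 95% limma interval (filled circles and lines) and without the library labelled p16 replicate 1 (open diamonds). Every interval crosses 0, and the widest belong to H2-Eb1 and H2-Aa, the class II genes with the fewest reads.

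The class II genes were read at a far lower number of reads. Together H2-Aa, H2-Ab1, H2-Eb1 and Cd74 took 0.00589%, 0.00595%, 0.00610% and 0.00500% of reads in the controls and 0.00771%, 0.00746%, 0.00569% and 0.00555% in the p16 libraries. Replicates 1 and 2 of the p16 group were above every control, and replicates 3 and 4 were not. All 4 fitted fold changes were positive, though that of H2-Aa turned to -0.02 without control replicate 4, and none passed the test.

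Cd74 (chromosome 18, ENSMUSG00000024610) had 72.7, 84.7, 89.4 and 91.7 normalized reads in the controls and 113.5, 97.6, 79.8 and 85.5 in the p16 libraries, from 60 to 142 reads each. Of the p16 libraries, replicates 1 and 2 were above the controls and the other 2 within them. The means were 84.6 ± 8.47 and 94.1 ± 14.9 (SD, n = 4 each), a log2 fold change of 0.14 (SE 0.14, limma adjusted p = 0.707). It was 0.05 without p16 replicate 1, which had the highest value.

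H2-Aa (chr17:34282744-34287823), the alpha chain of the I-A molecule, had 34.9, 35.9, 23.4 and 13.8 normalized reads in the controls and 33.6, 47.6, 23.9 and 22.2 in the p16 libraries, from 9 to 61 reads. Only p16 replicate 2 exceeded the controls. The means were 27.0 ± 10.5 and 31.8 ± 11.7 (SD, n = 4 each), a log2 fold change of 0.26 (SE 0.31, limma adjusted p = 0.772). Its interval ran from 0.751-fold to 1.90-fold.

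H2-Ab1 (chr17:34257689-34269419), the beta chain of the same molecule, had 34.1, 33.4, 34.2 and 26.0 normalized reads in the controls and 36.8, 36.7, 33.7 and 29.6 in the p16 libraries, from 17 to 47 reads. The means were 31.9 ± 3.97 and 34.2 ± 3.39 (SD, n = 4 each), a log2 fold change of 0.10 (SE 0.18, limma adjusted p = 0.866). Replicates 1 and 2 of the p16 group were a little above the highest control. The spread between controls, 12.4% of the mean, was below the 18.9% that counting error alone would give.

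H2-Eb1 (chr17:34305867-34316674), the beta chain of the I-E molecule, had 7.4, 3.9, 9.2 and 3.1 normalized reads in the controls and 10.4, 4.7, 8.0 and 7.4 in the p16 libraries, from 2 to 13 reads each. Replicate 1 of the p16 group exceeded the controls, and the others lay inside their range. The log2 fold change of 0.38 (SE 0.38, limma adjusted p = 0.707) was the largest of the 10, but its interval of 0.741-fold to 2.28-fold was also the widest. What size of change could be detected at this depth was not tested.

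Class II transcripts in a keratinocyte sort were set beside markers of cells that normally carry class II. Of the 18 Langerhans and myeloid markers, 16 were above 0 in some library, and their summed normalized reads were 29.5, 18.1, 25.7 and 30.5 in the controls and 25.6, 39.9, 24.1 and 29.6 in the p16 libraries (exact two-sided permutation p = 0.514). The most abundant of them was Cd68, and Lyz2 and C1qb were at 0 throughout. The library p16 replicate 2 had both the highest marker sum and the highest H2-Aa. Cd74, H2-Ab1 and H2-Eb1 were instead highest in p16 replicate 1, whose marker sum of 25.6 lay inside the range of the controls.

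Of the 2 defining markers of this list, Ptprc had 3 reads in each group. Cd207, the langerin of Langerhans cells, had normalized values of 0.7, 0.0, 0.8 and 0.0 in the controls, from 2 reads, and 2.4, 4.7, 1.8 and 3.3 in the p16 libraries, from 15 reads. Every p16 value was above every control (exact two-sided permutation p = 0.0286, the smallest possible), and it did not pass adjustment over all genes (limma adjusted p = 0.0922). The part of Langerhans cells in the class II reads was not tested.

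Dendritic markers summed to between 2.4 and 7.8 normalized reads per library, with Xcr1 the most abundant and Zbtb46, Cd209a, Clec10a and Clec9a at 0, and Flt3 had 1 read in all. B-cell markers summed to between 0.0 and 3.9, led by Cd22, with Cd79b and Pax5 at 0, and Cd79a had 3 reads over the 8 libraries. T and NK markers, led by Cd3d, summed to 17.8, 21.9, 19.1 and 21.3 in the controls and 16, 19.5, 5.4 and 11.4 in the p16 libraries (exact two-sided permutation p = 0.0857), with Cd8a, Gzmb and Ncr1 at 0. Cd3d had 47 reads over the controls and 26 over the p16 libraries, while Cd3g ran the other way with 4 and 13. The defining markers had 5 and 4 reads (Cd3e) and 5 and 2 reads (Ptprcap).

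**Figure D4:**
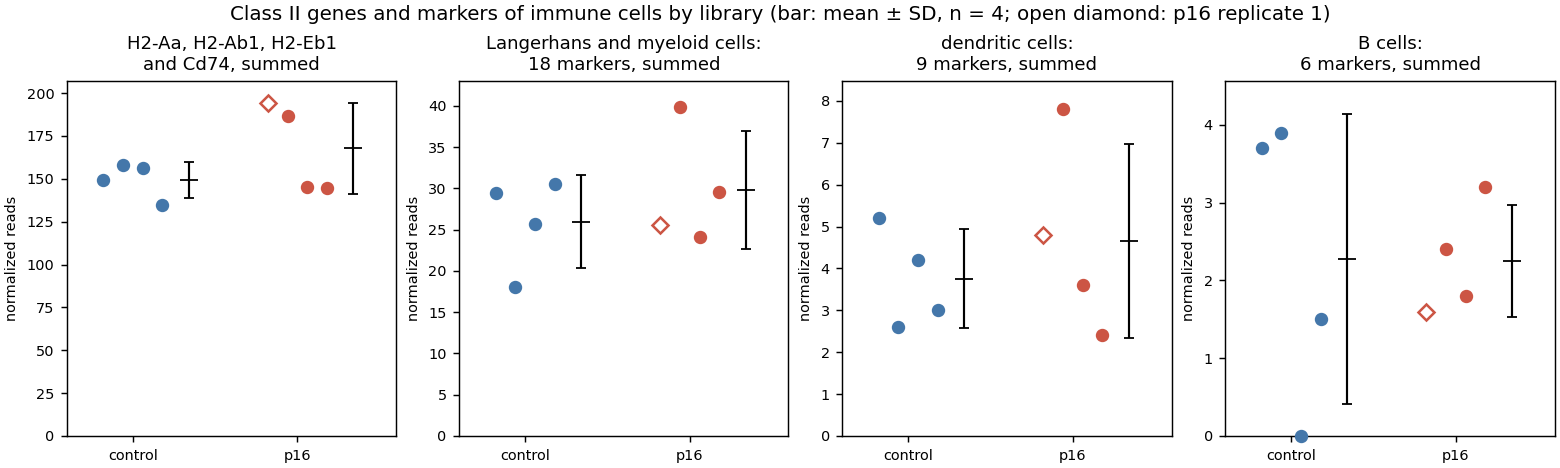
Summed normalized reads (y axis, from 0) of the 4 class II genes and of the Langerhans and myeloid, dendritic and B-cell markers in the 4 control and 4 p16 libraries, with the mean ± SD as a bar and p16 replicate 1 as an open diamond. The 2 groups overlap in every panel.

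Across the 8 libraries, after the mean of each group was removed, H2-K1 and H2-D1 varied most closely together of all member pairs (Pearson r = 0.935). H2-D1 and B2m had r = 0.830, H2-Aa and H2-Ab1 had r = 0.851, and Tap1 and Tapbp had r = 0.810. H2-D1 and H2-Ab1 ran opposite (r = -0.765). These are descriptions over 8 libraries that share their depth and scaling, and H2-K1 and H2-D1 can share reads: 9.60% of the 50-base stretches in the last 500 bases of H2-K1 transcripts and 8.92% of those of H2-D1 also occur in transcripts of other genes, where B2m and the 4 class II genes had 0. How such reads were counted is not given in the sources used here. Reads were aligned to a reference of 1 strain, H2 genes differ strongly between strains, and the part of strain in these values was not tested.

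The genes most like the mean profile of the 4 class II genes, among 9397 genes with a mean of at least 20, were Ift43 (r = 0.982), Utp18 (0.977), 1810011O10Rik (0.971), Itgav (0.969) and Sdcbp (0.956). Those most like the 6 class I genes were Hoxc5 (r = 0.986), Acbd4 (0.980), Fahd2a (0.968), Yipf2 (0.966) and Afap1l1 (0.962). With 8 libraries and so many genes compared, correlations of this size are the top of a long ranking.

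The other genes of the pathway were taken from lists of fixed membership. Ctsl and Ctsd, lysosomal proteases, fell in p16 cells, and Vsir, which encodes the T-cell inhibitory ligand VISTA, rose. Only these 3 of the 91 member and pathway genes tested with limma were called, a share no higher than the 3.86% called over all tested genes. Both edgeR and DESeq2 called the same 3, with DESeq2 adding Lap3. Without p16 replicate 1, limma called 0 of these genes higher and 3 lower (Ctsl, Ctsd and Skint3), so the call of Vsir was lost.

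**Figure D5:**
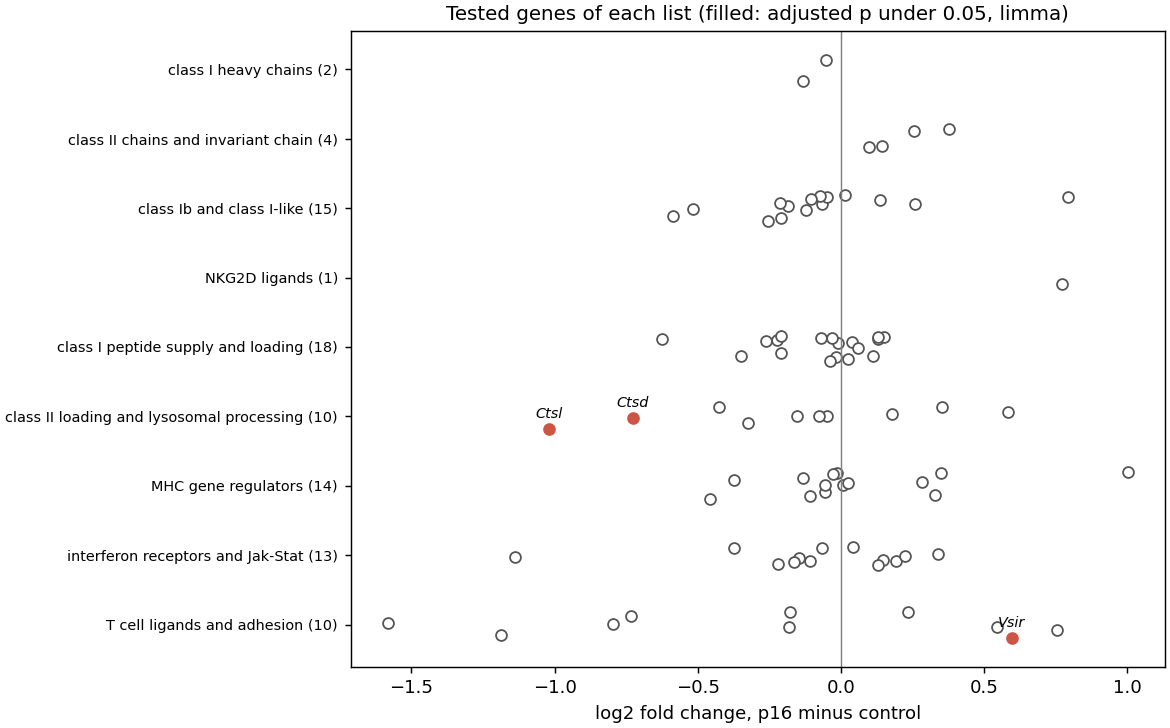
Log2 fold change of p16 minus control (x axis) of each tested gene, by list (y axis, with the number tested), with genes past an adjusted p of 0.05 in limma filled and named. Ctsl and Ctsd lie to the left and Vsir to the right, and all other points are open.

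In the class II loading and lysosomal list, 0 of 10 tested genes rose and 2 fell, where 2.61% of all tested genes fell, with a median log2 fold change of -0.12. Ctsl (cathepsin L), which cuts the invariant chain in thymic epithelium, had 333, 316, 352 and 275 normalized reads in the controls and 146, 140, 128 and 229 in the p16 libraries. Every p16 library was below every control. The means were 319 ± 32.7 and 160 ± 46.1 (SD, n = 4 each), a log2 fold change of -1.02 (SE 0.16, limma adjusted p = 0.00223). It was -0.99 without p16 replicate 1 (adjusted p = 0.0113).

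Ctsd (cathepsin D), an aspartic protease of the lysosome, had 734, 750, 1066 and 848 normalized reads in the controls and 434, 532, 452 and 634 in the p16 libraries, again without overlap. The means were 849 ± 153 and 513 ± 91.1 (SD, n = 4 each), a log2 fold change of -0.73 (SE 0.14, limma adjusted p = 0.00854). It was -0.65 without p16 replicate 1 (adjusted p = 0.0397). Without replicate 3 of both groups, whose labels word the library protocol differently, it was -0.56 with an adjusted p of 0.0785.

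Some further members of these lists are given for their role and were chosen with their values known. Ctsb, another lysosomal protease, had 2906 ± 259 and 2606 ± 131 (SD, n = 4 each, limma adjusted p = 0.472), and Lgmn had 92.7 ± 8.20 and 90.2 ± 13.0 (adjusted p = 0.920). Ctss (cathepsin S), the main invariant-chain protease of bone marrow-derived antigen-presenting cells, had between 0 and 4 reads in each library. Ifi30, a lysosomal thiol reductase, had 121 ± 18.3 and 89.3 ± 3.76 without overlap (adjusted p = 0.10). H2-DMa, a chain of the peptide editor of class II, had 12.4 ± 3.61 and 15.8 ± 2.07 (adjusted p = 0.588).

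The 2 groups also differed in some markers of cell types. The 8 hair-follicle stem cell markers, led by Krt15, summed to 12051, 15962, 11817 and 15665 normalized reads in the controls and 9110, 9151, 9090 and 9054 in the p16 libraries, and 6 of the 8 were called lower in limma. Over all tested genes, 2.61% were called lower and 1.24% higher. Postn of the same list ran the other way without passing, with means of 287 in the controls and 501 in the p16 libraries (limma adjusted p = 0.272). The 7 melanocyte markers, all above 0 and led by Dct, summed to 529.7, 224.7, 131.0 and 258.2 in the controls and 72.0, 142.9, 71.9 and 51.7 in the p16 libraries, and 2 were called lower. Of 10 fibroblast markers, 9 were above 0, led by Col6a1, with Lum at 0, and their sums were 131.2, 88.7, 103.4 and 181.8 in the controls and 179.2, 168.6, 295.2 and 266.4 in the p16 libraries. Dcn was the 1 fibroblast marker called higher, with 22 reads over the controls and 495 over the p16 libraries, while the defining markers Pdgfra and Col1a1 had 3 and 7 reads over the controls and 8 and 27 over the p16 libraries. Other members of that list ran the opposite way without passing the test: Col1a2 had 43 reads over the controls and 13 over the p16 libraries without overlap, and Col3a1 had 6 and 3. Of 7 markers of differentiated keratinocytes, led by Krt10, Lor was called higher, with a mean of 91.8 normalized reads in the controls and 303 in the p16 libraries, and Sbsn (1052 and 536) and Ivl (48.2 and 23.4) were called lower. Their sums were 6829, 5983, 8394 and 6562 in the controls and 7233, 6373, 8102 and 9803 in the p16 libraries, which overlapped. The part of these markers in the fall of Ctsl and Ctsd and the rise of Vsir was not tested.

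Class I peptide supply comprised 18 genes, of which 0 were called higher and 0 lower in limma, where 3.86% of all tested genes were called. Their median log2 fold change was -0.02. At an unadjusted p under 0.05, 2 passed, both lower, where 15.9% of all tested genes passed in either direction. These were Lap3, a leucine aminopeptidase, at 482 ± 130 and 309 ± 70.4 (log2 fold change -0.63, limma adjusted p = 0.0929), and Blmh, bleomycin hydrolase, at 252 ± 14.8 and 217 ± 21.4 (-0.22, adjusted p = 0.312), each SD with n = 4. DESeq2 called Lap3 (adjusted p = 0.0323). The immunoproteasome subunits, which interferon-gamma induces, were Psmb8 at 428 ± 28.8 and 474 ± 87.0, Psmb9 at 177 ± 35.3 and 154 ± 33.9, and Psmb10 at 61.9 ± 8.77 and 68.6 ± 7.22, with adjusted p from 0.642 to 0.710.

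Of 15 tested class Ib and class I-like genes, 0 were called by limma, where 3.86% of all tested genes were, with a median log2 fold change of -0.11. At an unadjusted p under 0.05, 1 gene passed, where 15.9% of all tested genes did. That gene was Hfe, a class I-like regulator of iron uptake, with 20.8, 12.8, 15.0 and 13.8 normalized reads in the controls and 25.6, 25.0, 23.9 and 36.2 in the p16 libraries. Its groups did not overlap, and its log2 fold change was 0.79 (SE 0.24, limma adjusted p = 0.0871). H2-Q7, a Qa-2 gene, had 456 ± 43.8 and 399 ± 80.2 (SD, n = 4 each, adjusted p = 0.501), and it belongs to a group of near-identical genes. H60c, a skin ligand of the activating receptor NKG2D and the 1 gene of 8 on that list that could be tested, had 60.1, 88.6, 133.6 and 68.8 in the controls and 112.7, 119.5, 117.9 and 268.9 in the p16 libraries (log2 fold change 0.77, SE 0.28, adjusted p = 0.165). Without p16 replicate 4, its highest library, the log2 fold change of H60c was 0.47 (adjusted p = 0.285).

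Among 14 regulators of MHC genes, limma called 0, where 3.86% of all tested genes were called. At an unadjusted p under 0.05, 1 was higher and 1 lower, where 15.9% of all tested genes passed in either direction. Nfyb, a subunit of the factor that binds the Y box, was the higher one, at 134 ± 17.8 and 172 ± 30.1 (SD, n = 4 each, log2 fold change 0.35, limma adjusted p = 0.232). Nlrc5, the class I transactivator, had 75.2 ± 8.47 and 70.1 ± 12.2 (adjusted p = 0.818). Ciita, the class II transactivator, had 0, 1, 0 and 0 reads in the controls and 4, 5, 0 and 1 in the p16 libraries. The libraries with over 3 Ciita reads, p16 replicates 1 and 2, also had the highest class II share, and whether the 2 are linked was not tested.

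Of 13 tested genes of interferon receptors and Jak-Stat signalling, 0 were called, where 3.86% of all tested genes were, with a median log2 fold change of -0.07. At an unadjusted p under 0.05, 1 gene was lower, where 15.9% of all tested genes passed in either direction. This was Irf7, an interferon-induced regulator, with 8.9, 14.1, 22.6 and 12.2 normalized reads in the controls and 8.0, 3.9, 3.5 and 9.0 in the p16 libraries (log2 fold change -1.14, SE 0.37, limma adjusted p = 0.117). Socs3, a feedback inhibitor, had 162 ± 17.8 and 130 ± 41.5 (adjusted p = 0.367).

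In the list of T-cell ligands and adhesion genes, 1 of 10 tested genes rose, where 1.24% of all tested genes did, and 0 fell, with a median log2 fold change of -0.18. At an unadjusted p under 0.05, 2 were higher and 3 lower, where 15.9% of all tested genes passed in either direction. The lower ones were Skint3, Icosl (limma adjusted p = 0.295) and Cd274 (adjusted p = 0.202). Cd274 had 0 to 5 reads per library, and its groups did not overlap. Vsir had 88.3, 73.2, 70.2 and 79.4 normalized reads in the controls and 135.9, 99.9, 111.7 and 126.6 in the p16 libraries, without overlap. The means were 77.8 ± 7.99 and 119 ± 15.9 (SD, n = 4 each), a log2 fold change of 0.60 (SE 0.14, limma adjusted p = 0.0237). The call was lost without p16 replicate 1 (log2 fold change 0.53, adjusted p = 0.102), and it held in 4 of 8 fits that left out 1 library.

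Icam1, the adhesion ligand of LFA-1, had 106 ± 12.7 and 159 ± 40.0 normalized reads (SD, n = 4 each) without overlap (log2 fold change 0.55, limma adjusted p = 0.0939). Without p16 replicate 1 its log2 fold change was 0.41 (adjusted p = 0.289). In the same setting it was -0.58 for Lap3, 0.82 for Hfe, 0.89 for H60c, -1.28 for Irf7 and -0.53 for Socs3, with adjusted p from 0.144 to 0.234. Skint3, a gene of a family of skin T-cell ligands, was chosen after its values were seen. It had 94.2, 83.4, 95.2 and 53.5 in the controls and 111.9, 12.5, 8.9 and 33.7 in the p16 libraries, so p16 replicate 1 was above every control and the other 3 were below them. With all libraries its log2 fold change was -1.58 (limma adjusted p = 0.151), and without p16 replicate 1 it was -2.27 (adjusted p = 0.00459). It was -1.02 without replicate 3 of both groups (adjusted p = 0.481), -0.99 in edgeR (adjusted p = 0.395) and -0.97 in DESeq2 (adjusted p = 0.742).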

How the data were processed

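The authors trimmed reads with Cutadapt, and the submitters' processing notes name TopHat2, HTSeq, DESeq2 and the build GRCm38, without versions. How molecular identifiers and duplicates were handled is not given in the sources used here. In the deposited table, signal means the reads of a gene scaled by a size factor of its library, given to 1 decimal. Columns with the authors' group means, fold changes and p-values were not used.

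Whole reads were recovered for 100% of the values (tolerance 0.051 normalized reads). Groups were taken from the labels. The test was limma 3.58.1 (R 4.3.3, eBayes with a trend) on log2(normalized value + 1) for genes whose mean reached 1, with Benjamini-Hochberg adjustment. Folds of low genes are understated on this scale. Single genes were also compared with exact two-sided permutation tests (scipy 1.17.1). Alternatives used edgeR 4.0.16 and DESeq2 1.42.0 on the recovered reads, other pseudocounts and filters, another scaling, a replicate block and left-out libraries. All 3 fits were tested on simulated data with known changes.

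The members and lists were chosen with earlier results of these data known. Named are all members, every called gene of a pathway list, the 2 genes of each list with the smallest p, and the 5 genes most like each class. A few genes on these lists are left out of the text. Coordinates are those of GENCODE M21, and markers are given as sums. Reads without resolved molecular identifiers may not be independent molecules, so limits of 3 reads cover counting error only.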

Additional observations from a re-analysis of the deposited data

Results flagged for a closer look

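In 46 groups of 4 libraries (named genes in each group), 3 held a library whose gap to the nearest other value exceeded Dixon's 95% critical share of the group's range, which chance gives in about 1 group in 20. H2-Ab1 was lowest in control replicate 4, at 26.0 normalized reads against 33.4 for the next library (0.902 of the range). Hfe was highest in p16 replicate 4, at 36.2 against 25.6 (0.862 of the range). H60c was highest in the same library, at 268.9 against 119.5 (0.956 of the range). Over all genes p16 replicate 4 also stood apart from the other p16 libraries. The chi-square per gene between 2 libraries was 6.75 to 8.96 in its pairs and 3.05 to 3.31 among the other p16 libraries. Between controls it was 3.64 to 5.33.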

How the results depend on the processing

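The count of called genes among the 10 presentation genes was 0 in both directions in all 21 settings, the unadjusted threshold included, except that H2-Eb1 was not tested with a mean of at least 10 or with the edgeR filter. H2-K1 and H2-Aa changed sign in 1 of 20 alternatives each (0.02 and -0.02, both without control replicate 4), and Tap2 in 6, none of them called. Over all genes, leaving out 1 library gave 69 to 196 higher and 177 to 343 lower genes, against 159 and 334 with all libraries. Without replicate 3 of both groups the counts were 66 and 157, and at an unadjusted p they were 897 and 1141. Fewer libraries enter the former, and the cause beyond that was not tested. Ctsl was called in 19 of 19 adjusted alternatives, Ctsd in 18 and Vsir in 14. Vsir was lost without p16 replicate 1, p16 replicate 3, control replicate 2, control replicate 3, and replicate 3 of both groups (adjusted p 0.0503 to 0.123). Total count scaling, which moved the median of all genes by most (0.03), called 185 higher and 272 lower. With the replicate number as a block, limma called 216 higher and 392 lower genes, and no member or named call changed. Residuals of same-numbered libraries correlated between 0.004 and 0.083, so the numbers were not taken as pairs. H2-Eb1 had only 2 to 13 reads per library, and its spread was close to counting error (48.9% against 50.6% of the mean in the controls). That of H2-Aa was above it (38.8% against 22.6%).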
